A study of Mus musculus with 12 samples.

Results

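The livers of all mice given a diet model of fatty liver disease were set against the livers of mice on normal chow, to find the expression changes that the diet groups shared whatever the mice were later dosed with. All 12 sequenced livers entered this comparison, with 9 diet-model livers on one side and 3 control livers on the other. The mice were C57BL/6J, an inbred laboratory strain. Control mice ate normal chow and received the vehicle CMC-Na by mouth for 4 weeks. In the MASH group a high-fat diet was used to induce metabolic dysfunction-associated steatohepatitis, and the same vehicle followed for 4 weeks once the model had been established over 8 weeks. The EE group had the same model and then Eleutheroside E, a plant lignan glycoside, at 100 mg/kg by mouth, and the resmetirom group had it and then resmetirom, an agonist of the beta form of the thyroid hormone receptor, at 3 mg/kg. Each of the 4 groups had 3 livers, named here by group and replicate number, and the study lasted 12 weeks in all. The sources used here do not give the sex of the mice, the diet's composition or whether it went on during dosing. A compound was given to 6 of the 9 diet livers, so diet and compound cannot be told apart in the EE and resmetirom groups taken alone. The labels give each sample a replicate number and do not say in words that each came from its own mouse, so the p-values measure the spread between these samples.

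A high-fat diet loads hepatocytes, the main cells of the liver, with triglyceride stored in lipid droplets. Hepatocytes also make bile acids, break down amino acids, secrete lipoproteins and clear foreign compounds with cytochrome P450 enzymes, whose genes are switched by nuclear receptors such as PXR and CAR. Sterol synthesis is switched on by SREBP2 when the cell's cholesterol is low, and feeding, fasting and the circadian clock set the level of many liver transcripts over the day. Inflammation in fatty liver involves Kupffer cells, the resident macrophages, and macrophages recruited from blood. In bulk tissue, fewer cells of a type and less RNA per cell cannot be told apart.

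Library totals lay between 17297864 and 21793311 counts, and 13988 genes passed the filter on low counts. Levels are in CPM, counts relative to the TMM-scaled library total, and a gene is said to have passed, risen or fallen where its Benjamini-Hochberg adjusted p in edgeR's quasi-likelihood test was below 0.05. All 16 hepatocyte markers were detected, with a summed level of 91058 to 143811 CPM in diet livers and 112860 to 179975 CPM in controls. Control 1 stood apart from all other livers. Mitochondrially encoded transcripts took 35.4% of its counts and 2.40% to 4.38% of those of the other 11, and its log2 CPM correlated across genes at 0.893 and 0.892 with control 2 and control 3, which correlated with each other at 0.984. Resmetirom 2 had 35.7% of its counts in the major urinary proteins. Results are therefore given with and without control 1.

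Across the 13988 genes, 157 passed, of which 22 rose and 135 fell in the diet livers. The genes that passed made up 1.12% of those tested, 0.157% higher and 0.965% lower. All 157 had the same direction in the MASH, EE and resmetirom group means. Passing favours this, because the test is on the mean of these same 3 changes against the same controls. Of all tested genes 27.4% were higher and 30.9% lower in all 3 diet groups. In 125 of the 157 no diet liver overlapped any control, 20 of them higher and 105 lower. Passing favours this too, so neither count is separate evidence of a shared change. Of all tested genes, every diet liver lay above every control in 2.16% and below every control in 3.1%. A positive fold change was found in 6727 of the 13988 genes and a negative one in 7261. The log2 fold change of a gene that fell had a median of −0.94 in MASH, −1.47 in EE and −1.45 in resmetirom livers, and that of a gene that rose had a median of 0.97, 1.15 and 2.01. In 66 of the 157 the change was at least 1 log2 unit in each diet group, and in 133 at least 0.5.

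Without control 1, 14299 genes were tested and 32 passed, 1 higher and 31 lower (0.224% of those tested, 0.00699% higher and 0.217% lower). Of these, 24 had also passed with all livers and 8 had not, and in 30 of the 32 the groups did not overlap. With only 2 controls, every diet liver lay above both controls in 4.9% of the tested genes and below both in 8.09%, and 29.4% were higher and 27.6% lower in all 3 diet groups. A positive fold change was then found in 7631 of the 14299 genes and a negative one in 6668. All 157 genes kept their direction without control 1, 152 of them at an unadjusted p below 0.05, and 125 had a smaller fold change. In 156 the direction was still shared by all 3 diet groups, the exception being Hectd2os, an antisense RNA whose change in MASH livers turned to 0.25. Their median absolute log2 fold change was 1.31 with all livers and 0.98 without control 1. The 157 were picked in a fit that held these same livers, which favours a kept direction and a small p. Neither is therefore separate evidence. Over all 14299 genes tested without control 1, 2284 had an unadjusted p below 0.05.

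**Figure D1:**
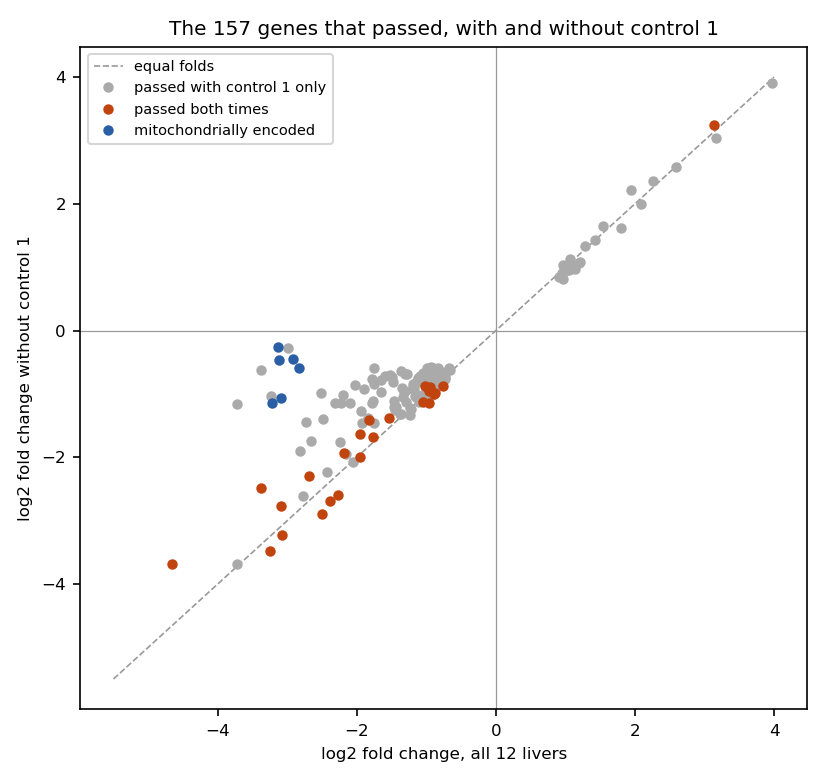
Log2 fold change of diet-model against control livers for each of the 157 genes that passed with all 12 livers (horizontal axis) and the same without control 1 (vertical axis). Points lie on the same side of 0 on both axes, and the mitochondrially encoded genes, among others, lie far above the dashed line of equal folds.

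The number of genes that passed moved with single livers. Leaving out MASH 1, MASH 2 or MASH 3 left 29, 23 and 16 genes, and leaving out EE 1, EE 2 or EE 3 left 22, 21 and 9. Without resmetirom 1 the number was 292, and without resmetirom 3 it was 53. Without control 2, control 3 or resmetirom 2 it was 159, 157 and 145, and without both control 1 and resmetirom 2 it was 352, of which 347 had the same direction in all 3 diet groups. The direction of all 157 genes was kept in each of the 12 fits that left out 1 liver. Each such fit shares most livers with the one that picked the 157, which favours a kept direction. In at least 6 of the fits 32 genes passed, and 9 genes passed in every one. Of those 9, the named genes were Cyp2c55, Cyp3a59, Gsta2, Angptl8, Klf10, Snhg11 and the predicted gene Gm30784, and all 9 were lower in the diet livers except an unnamed Ensembl gene.

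Drug-metabolizing cytochromes P450 were among the most lowered transcripts. Cyp2c55, an enzyme that oxidizes drugs and fatty acids, stood at 6.23, 9.89 and 8.73 CPM in control 1, control 2 and control 3, and at 0.544 to 2.27 CPM in the 9 diet livers, with a median of 0.923. Every diet liver was below every control, and the highest diet liver was resmetirom 1. The gene fell by 3.07 on the log2 scale (SE 0.26, edgeR adjusted p = 0.000385), and by 3.23 without control 1 (adjusted p = 0.0014). The change was −3.10 in MASH, −3.62 in EE and −2.50 in resmetirom livers.

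Cyp3a11, the main drug-oxidizing enzyme of the CYP3A family in mouse liver and a standard target of PXR, was at 2214, 4025 and 3955 CPM in the controls. In the diet livers it lay between 98.7 and 946 CPM, with a median of 314. No diet liver reached the lowest control, and resmetirom 1 and MASH 1 were the highest of the 9. It fell by 3.25 (SE 0.51, adjusted p = 0.0221), and by 3.47 without control 1 (0.0408). This call was lost when MASH 2, MASH 3 or any EE liver was left out. Its relatives Cyp3a59 and Cyp3a25 fell as well, by 1.77 (SE 0.22, adjusted p = 0.00796) and 1.47 (SE 0.22, adjusted p = 0.0178). Cyp3a59 was at 36.0, 31.1 and 30.3 CPM in the controls and at 3.38 to 19.9 CPM in the diet livers, and Cyp3a25 was at 732, 430 and 503 CPM against 104 to 296 CPM. Neither overlapped between diet and control. Without control 1 the changes were −1.69 (adjusted p = 0.0334) and −1.21 (0.0579). Genes of the CYP3A and CYP2C clusters are close copies, and how the deposited counts split reads between copies is not given in the sources used here.

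Of 9 tested genes of the CYP3 list with its regulators, 3 fell, none rose and the median was −0.74, or −0.29 without control 1, beside −0.02 and 0.04 over all tested genes. By group the median of the CYP3 list was −0.31 in MASH, −0.15 in EE and −1.09 in resmetirom. Without control 1 it was −0.30, 0.14 and −0.85, so its direction in EE livers turned. In the list of CYP1 and CYP2 drug-metabolism genes, 21 of 28 had a negative fold change, with a median of −0.35 (−0.32 without control 1), and Cyp2c55 was the member that passed. The group medians of this list were −0.35 in MASH, −0.17 in EE and −0.83 in resmetirom, and −0.26, 0.01 and −0.82 without control 1. Cyp2a5, which oxidizes coumarin and nicotine, was at 1018, 663 and 664 CPM in controls and 104 to 500 CPM in diet livers, with no overlap and an adjusted p of 0.0566. Cyp2c29 was at 96.7 CPM in control 1 and 1301 and 1567 CPM in the other controls, against 41.2 to 815 CPM in diet livers. It passed only without control 1, at −2.10 (SE 0.33, adjusted p = 0.0408). In that fit the change was −1.34 in MASH, −0.97 in EE and −4.00 in resmetirom livers, and the diet groups differed (adjusted p = 0.0152). Cyp2b10, the standard target of CAR, was called in the fit without control 1 (−3.93, adjusted p = 0.0408). It was at 2.11 and 3.00 CPM in control 2 and control 3 and 0 to 0.401 CPM in the diet livers. That fit tested 30 genes of the CYP1 and CYP2 list instead of 28. With the diet livers so low, Cyp2b10 may have passed the filter through control 2 and control 3 alone. Its level in control 1 is not given here, so its call is not set against a result with all livers.

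Several P450 genes of other substrates fell too. Cyp2j9, an oxidizer of polyunsaturated fatty acids, was at 14.97 CPM in control 1, 2.58 and 2.89 CPM in the other controls and 0.375 to 1.89 CPM in diet livers (−2.74, adjusted p = 0.0253). Cyp26a1, which breaks down retinoic acid, was at 27.6, 4.27 and 8.37 CPM against 0.899 to 4.00 CPM (−2.48, adjusted p = 0.0477). Control 1 was the highest liver for both, and without it their changes were −1.44 (adjusted p = 0.0978) and −1.40 (0.206).

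Enzymes of the next steps of detoxification followed in part. Gsta2, a glutathione transferase of the alpha class with close copies, was at 56.7, 25.7 and 32.5 CPM in the controls and 3.38 to 10.3 CPM in the diet livers, with a median of 5.44. All 9 diet livers lay below the lowest control, and the gene fell by 2.69 (SE 0.31, adjusted p = 0.00436), or 2.29 without control 1 (0.0214). Ces2a, a carboxylesterase of the endoplasmic reticulum that hydrolyses drugs and lipid esters, fell by 1.76 (SE 0.32, adjusted p = 0.0359) from 724, 454 and 400 CPM to 54.2 to 240 CPM. Fmo2, a flavin monooxygenase that oxidizes nitrogen- and sulphur-containing compounds, fell by 1.24 (SE 0.26, adjusted p = 0.0478) from 9.15, 7.65 and 15.5 CPM to 2.26 to 6.95 CPM. Neither passed without control 1 (adjusted p = 0.113 and 0.094). Slco1a4, an uptake transporter for bile acids and drugs, lay at 42.3 to 88.5 CPM in controls and 6.04 to 34.9 CPM in diet livers (−1.78, adjusted p = 0.0534). Of 21 tested conjugation enzymes, 15 had negative values and none passed, with a median of −0.29 (−0.32 without control 1).

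**Figure D2:**
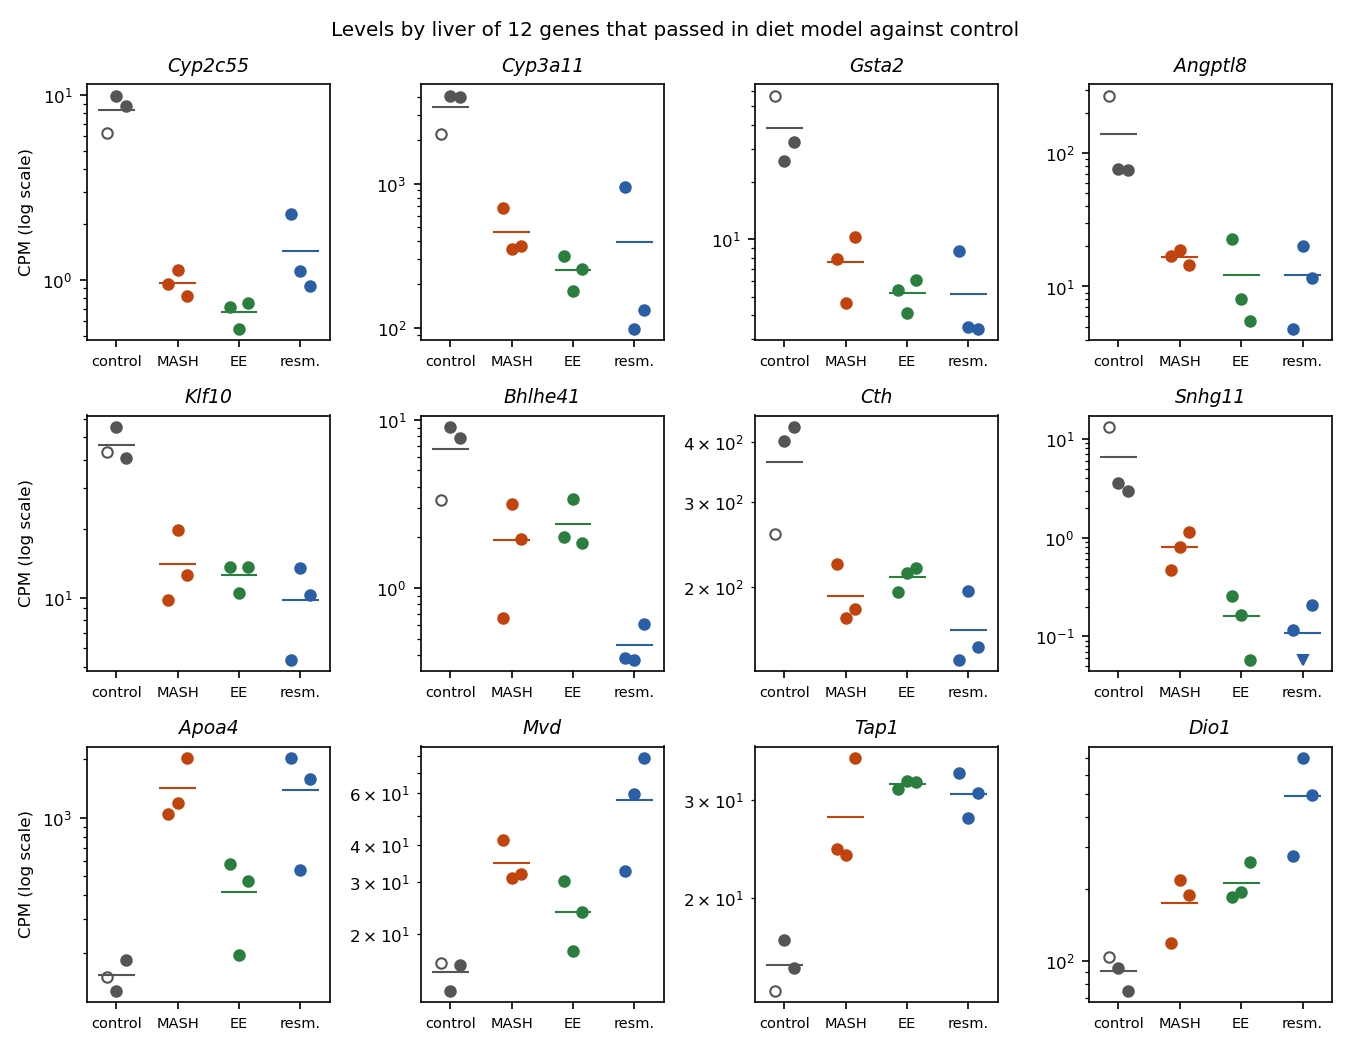
Level in CPM (log axis) of 12 genes that passed, in each liver by group, with a line at the group mean. The open grey point is control 1, the triangle marks a liver with no counts, and no diet liver overlaps a control in any panel except that of Bhlhe41.

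Genes of triglyceride transport changed in opposite directions. Angptl8, a secreted hepatocyte protein induced by feeding that acts in the control of lipoprotein lipase, was at 268, 76.3 and 74.5 CPM in the controls and at 4.81 to 22.7 CPM in the diet livers, with a median of 14.6. The lowest control was above the highest diet liver. Angptl8 fell by 3.37 (SE 0.46, adjusted p = 0.0148), in MASH (−3.06), EE (−3.53) and resmetirom (−3.54), and by 2.48 without control 1 (0.0478).

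Apoa4, an apolipoprotein that liver makes in proportion to its triglyceride, was at 152, 128 and 186 CPM in controls and 196 to 2031 CPM in diet livers, with a median of 1042. Every diet liver was above every control, EE 2 being the lowest. It rose by 2.59 (SE 0.47, adjusted p = 0.0359), with 3.19 in MASH, 1.42 in EE and 3.16 in resmetirom livers, and the change was 2.58 without control 1 (adjusted p = 0.0991). Elovl6, which elongates palmitate to stearate, fell by 0.88 (SE 0.16, adjusted p = 0.0369) and by 0.99 without control 1 (0.0449). It was at 87.3, 139 and 90.0 CPM in controls and 37.1 to 96.2 CPM in diet livers, and the MASH livers, at 76.0 to 96.2 CPM, overlapped the controls.

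Most genes of lipid droplet proteins had positive fold changes, and none passed. Of 18 tested genes 15 had a positive fold change, 13 of them in all 3 diet groups, and the median was 0.54 (0.45 without control 1). Plin2, the main droplet coat protein of hepatocytes, was at 115, 423 and 364 CPM in controls and at 421 to 971 CPM in diet livers, with a median of 694 (1.12, adjusted p = 0.126). Control 1 was far below the other controls, and EE 2 and resmetirom 2, at 421 and 424 CPM, were level with control 2. Plin3, a related coat protein, and Mgll, which releases the last fatty acid of a glyceride, were above every control in every diet liver, at 29.7 to 46.7 against 15.8 to 24.1 CPM and at 189 to 378 against 125 to 182 CPM (adjusted p = 0.0643 and 0.0753). Cidec, which fuses droplets, was at 0.101 to 1.99 CPM in controls, 13.2 to 55.8 CPM in MASH and 0.899 to 12.1 CPM in the treated livers, some of which overlapped the controls. Of 26 genes of fatty acid oxidation, 22 had a positive value and none passed, with a median of 0.48 (0.28 without control 1). The group medians of that list were 0.63, 0.65 and 0.15 in MASH, EE and resmetirom, and 0.37, 0.46 and −0.05 without control 1, so its direction in resmetirom livers turned.

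Cholesterol synthesis held 2 of the 22 genes that rose. Mvk, mevalonate kinase, and Mvd, mevalonate diphosphate decarboxylase, catalyse successive stages of the pathway that turns mevalonate into isoprenoid units. Their promoters are shown because both hold the CCAAT box bound by NF-Y, a factor that works with SREBP2 on sterol genes. The sequences, from RefSeq (GRCm38.p6), are the 250 bases before the transcript start, 5′ to 3′ on the gene's strand, with the box (CCAAT or its complement ATTGG) in capitals. Mvd lies on the minus strand at chr8:122443423-122443672 and Mvk on the plus strand at chr5:114444019-114444268.
Mvd: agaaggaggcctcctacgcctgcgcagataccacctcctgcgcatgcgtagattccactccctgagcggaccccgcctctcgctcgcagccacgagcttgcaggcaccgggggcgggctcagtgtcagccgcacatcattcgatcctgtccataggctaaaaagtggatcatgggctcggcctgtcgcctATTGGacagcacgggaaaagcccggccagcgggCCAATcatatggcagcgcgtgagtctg
Mvk: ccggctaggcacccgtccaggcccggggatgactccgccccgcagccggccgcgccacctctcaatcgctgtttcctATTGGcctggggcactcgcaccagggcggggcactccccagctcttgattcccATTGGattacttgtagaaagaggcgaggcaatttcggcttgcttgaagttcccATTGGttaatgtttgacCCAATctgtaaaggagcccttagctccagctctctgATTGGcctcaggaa
The Mvd window holds 2 boxes and the Mvk window 5. Over the 300 bases from 250 before to 50 after the start, 16 of the 17 genes of the cholesterol list with a promoter in the table hold a box (94.1%), beside 43.0% of the tested genes and 37.4% of all promoters in the table. The box is also in 14 of 18 promoters of the clock list (77.8%), and in 6 of 13 promoters of genes that rose (46.2%). The sterol element, the kind of site that SREBP2 binds, was searched on both strands as 1 exact string and is in none of the 17 promoters, beside 0.069% of the tested genes and 0.091% of all promoters, which says only that those letters are not in those windows. A match of letters is no measure of binding.

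Mvd was at 15.98, 12.9 and 15.8 CPM in the controls and 17.5 to 78.4 CPM in the diet livers, with a median of 31.8. It rose by 1.28 (SE 0.27, adjusted p = 0.0477), with 1.22 in MASH, 0.68 in EE and 1.93 in resmetirom livers. Mvk was at 12.4, 15.9 and 22.2 CPM against 22.2 to 74.4 CPM, with a median of 33.4, and rose by 1.13 (SE 0.24, adjusted p = 0.0478). For both, all diet livers lay above all controls, narrowly in EE 2 for Mvd and in MASH 3 for Mvk, and resmetirom 2 and resmetirom 3 were the highest. Neither passed without control 1, with changes of 1.34 (adjusted p = 0.107) and 0.96 (0.124). In the list of 25 cholesterol synthesis genes, 21 had positive values and the median was 0.71 (0.46 without control 1). In 7 of the 25 all diet livers lay above all controls, beside 2.16% of all tested genes. The medians by group were 0.48 in MASH, 0.48 in EE and 1.15 in resmetirom, and 0.25, 0.14 and 0.93 without control 1. Srebf2, the gene of SREBP2, was at 35.1 to 52.5 CPM in controls and 53.3 to 105 CPM in diet livers (0.71, adjusted p = 0.0711), and Fdft1, squalene synthase, was at 70.0 to 119 against 133 to 320 CPM (0.97, adjusted p = 0.057).

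Cth, Gls2 and Oat, enzymes of amino acid breakdown, fell in the diet livers. Cth, cystathionine gamma-lyase, which makes cysteine from methionine's sulphur, was at 258, 402 and 430 CPM in controls and 141 to 224 CPM in diet livers, with a median of 195. The groups did not overlap, and Cth fell by 0.96 (SE 0.18, adjusted p = 0.0372) and by 1.15 without control 1 (0.0214). Its change was −0.92 in MASH, −0.79 in EE and −1.16 in resmetirom livers. Gls2, the liver form of glutaminase, which supplies ammonia to the urea cycle, fell by 0.80 (SE 0.16, adjusted p = 0.0418) from 450, 340 and 336 CPM to 170 to 241 CPM, and by 0.64 without control 1 (adjusted p = 0.103).

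Etnppl, a phosphoethanolamine lyase of periportal hepatocytes, was at 105, 106 and 113 CPM in the controls, at 38.9 to 61.4 CPM in MASH, 25.0 to 38.7 CPM in EE and 4.42 to 20.3 CPM in resmetirom livers. It fell by 2.06 (SE 0.33, adjusted p = 0.0221), and by 2.07 without control 1 (0.0623). Oat, ornithine aminotransferase, fell by 1.23 (SE 0.23, adjusted p = 0.0359), although MASH 3, at 1228 CPM, was above all controls (970, 1016 and 1016 CPM). Without control 1 its change was −1.24 (adjusted p = 0.0766), and the call was also lost without control 2, control 3, MASH 1, MASH 2 or any EE liver. Rida, a deaminase that clears reactive imines made during amino acid breakdown, passed at −1.75 (SE 0.37, adjusted p = 0.0478) with control 1 at 1449 CPM and control 2 and control 3 at 326 and 298 CPM, and its change was −0.59 (adjusted p = 0.141) without control 1. Csad, which makes the taurine precursor hypotaurine, and Uox, urate oxidase, passed only without control 1, at −0.997 (adjusted p = 0.0408) and −1.10 (0.0417). Of 35 tested genes of amino acid catabolism and the urea cycle, 22 had negative values, 3 fell and none rose, with a median of −0.21 (−0.27 without control 1). By group that median was −0.27 in MASH, 0.02 in EE and −0.21 in resmetirom, and −0.25, −0.02 and −0.31 without control 1. Among 14 markers of periportal hepatocytes, the zone around the portal vein where ureagenesis is strongest, 10 had negative values and 2 fell, Gls2 and Etnppl (median −0.34, and −0.36 without control 1). Of 15 pericentral markers, 7 were positive and 8 negative, and 1 fell, Oat (median −0.03, and 0.01 without control 1). No marker of either zone passed without control 1.

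Klf10, Zbtb16, Zbtb20, Foxp1 and Bhlhe41 encode transcription factors that fell. Klf10, a zinc-finger repressor that is induced by glucose and by TGF-beta, was at 43.0, 55.4 and 40.6 CPM in the controls and 5.35 to 19.7 CPM in the diet livers, with a median of 12.6. No diet liver came near the controls, and Klf10 fell by 1.96 (SE 0.25, adjusted p = 0.00796), or 2.00 without control 1 (0.0228). Its change in MASH, EE and resmetirom was −1.73, −1.89 and −2.26. Zbtb16, a glucocorticoid-induced transcription factor also known as PLZF, was at 7.44, 25.0 and 31.4 CPM in controls and 1.54 to 8.02 CPM in diet livers. Resmetirom 2 overlapped control 1, and the gene fell by 2.49 (SE 0.39, adjusted p = 0.0221) and by 2.89 without control 1 (0.00682). Glcci1, another glucocorticoid-induced transcript, was at 1.57 to 3.12 CPM in controls, 0.0781 to 0.125 CPM in MASH, 1.49 to 2.01 CPM in EE and 0.564 to 1.05 CPM in resmetirom livers. It fell by 2.19 (SE 0.31, adjusted p = 0.0148), and by 1.93 without control 1 (0.0449). The EE livers overlapped the controls. The other members of the glucocorticoid list did not pass, and 8 of its 17 tested genes had positive values.

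Zbtb20, a repressor of fetal liver genes, and Foxp1, a forkhead repressor that restrains gluconeogenesis, fell by 1.38 (SE 0.22, adjusted p = 0.0221) and 1.12 (SE 0.20, adjusted p = 0.0301). Zbtb20 was at 63.6 to 95.1 CPM in controls and 17.31 to 41.7 CPM in diet livers, and Foxp1 at 12.6 to 25.3 against 6.36 to 9.75 CPM. Neither overlapped, and without control 1 they were at −1.32 (adjusted p = 0.0719) and −0.74 (0.0766).

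In the circadian clock list, Bhlhe41, a repressor also called Dec2 that binds the E-box, fell by 2.38 (SE 0.39, adjusted p = 0.0221) and by 2.69 without control 1 (0.0259). It was at 3.32, 9.05 and 7.77 CPM in controls, 0.662 to 3.18 CPM in MASH, 1.85 to 3.38 CPM in EE and 0.375 to 0.615 CPM in resmetirom livers, and EE 2 overlapped control 1 only. Of 21 clock genes 17 had negative values, with a median of −0.43 (−0.58 without control 1). By group the median was −0.38 in MASH, 0.05 in EE and −0.59 in resmetirom, and −0.55, −0.13 and −0.75 without control 1, so its direction in EE livers turned. Rora, a nuclear receptor that activates the clock gene Bmal1, was at 38.9 to 43.2 CPM in controls and below every control in all diet livers, at 11.8 to 37.6 CPM (−0.91, adjusted p = 0.0566). The labels give a light cycle for the mice, and the hour at which each liver was taken is not given in the sources used here. An E-box (CACGTG, which reads the same on both strands) occurs in the promoters of 15 of 82 genes that fell (18.3%) and of 11.7% of the tested genes. Among the genes that fell without control 1 it occurs in 2 of 19 (10.5%).

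**Figure D3:**
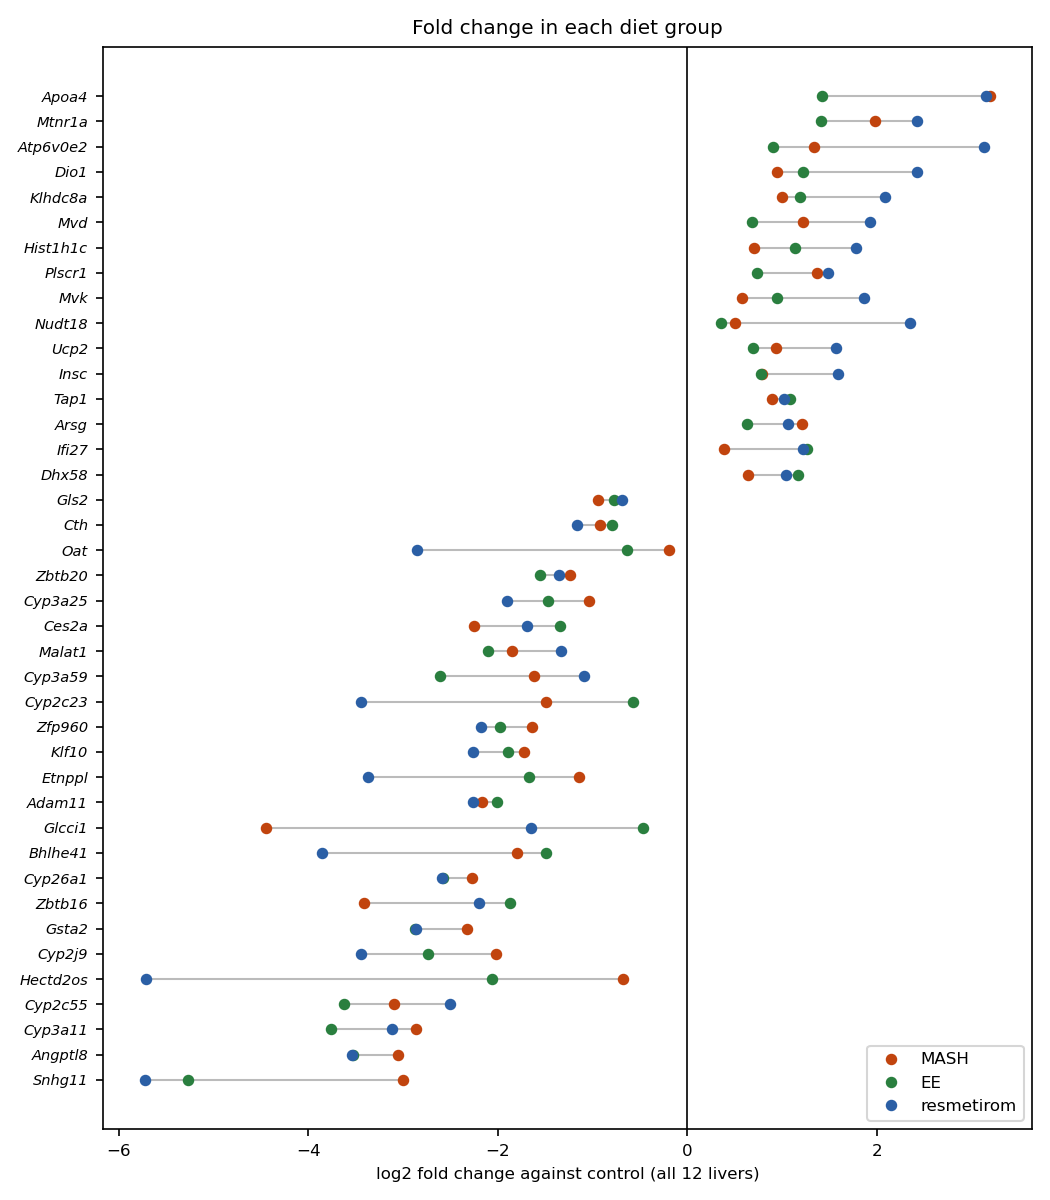
Log2 fold change against control in MASH, EE and resmetirom livers, fitted with all 12 livers, for 24 genes that fell and 16 that rose. Each row is a gene and its 3 points lie on one side of 0, and Hectd2os, Glcci1 and Oat spread widest relative to the smallest of their changes.

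Snhg11, Malat1 and Firre were the long noncoding RNAs followed here. Snhg11, a long noncoding RNA that hosts a small nucleolar RNA, was at 13.2, 3.55 and 2.99 CPM in controls and at most 1.13 CPM in diet livers, with a median of 0.205 and no counts in resmetirom 2. It fell by 4.67 (SE 0.51, adjusted p = 0.00343), and by 3.68 without control 1 (0.0116), with −3.00 in MASH, −5.27 in EE and −5.73 in resmetirom livers. Malat1, an abundant RNA of nuclear speckles, fell by 1.76 (SE 0.29, adjusted p = 0.0233) from 178, 56.9 and 74.2 CPM to 15.01 to 49.6 CPM. Firre, a nuclear RNA that organizes chromosome contacts, fell by 1.65 (SE 0.31, adjusted p = 0.0372) from 32.4, 9.89 and 8.53 CPM to 3.58 to 7.66 CPM. Control 1 was the highest liver for all of these. Without it the changes of Malat1 and Firre were −1.10 (adjusted p = 0.0757) and −0.78 (0.09), and for each of them every diet liver was still below control 2 and control 3.

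Some of the lowered genes act in RNA processing and are given singly, since they were picked after their values were seen. Luc7l3, a splicing factor, fell by 0.99, Prpf39, part of the U1 snRNP, fell by 1.499, Ccnl2, a cyclin of splicing kinases, fell by 1.37, and Thoc2, of the mRNA export complex, fell by 1.06 (adjusted p = 0.0337, 0.0477, 0.0477 and 0.0286). Tnrc6a, a scaffold of microRNA silencing, fell by 1.27 (adjusted p = 0.0372). Their levels in control 1 were 26.2, 18.7, 92.7, 22.2 and 64.4 CPM, above control 2 and control 3 in each case. Without control 1 they were at −0.82, −0.74, −0.65, −0.77 and −0.68, with adjusted p from 0.0766 to 0.149. Hook3 and Eea1, which act in vesicle transport and endosome fusion, fell by 1.05 (adjusted p = 0.0221) and 1.01 (adjusted p = 0.0162), and by 1.13 and 0.88 without control 1 (adjusted p = 0.0408 and 0.0417). The change of Hook3 was −0.42 in MASH, −1.45 in EE and −1.27 in resmetirom livers, and that of Eea1 −0.60, −1.25 and −1.19. With all livers a difference among the diet groups passed for neither (adjusted p = 0.0769 and 0.185). Without control 1 it passed for Hook3 (adjusted p = 0.0410) and not for Eea1 (0.0760).

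The genes that fell had a median transcript length of 4224.5 bases with a GC content of 41.3% (126 genes with a length), beside 3274.5 bases and 49.4% over 13364 tested genes, so they were longer and richer in A and T than the typical tested gene. The genes that rose had a median of 1989 bases and 55.0% GC (21 genes). Without control 1, the genes that fell had a median of 2933 bases and 43.2% GC (28 genes). With offsets for each library's dependence on length and GC, added after seeing the data, 36 genes passed, 4 higher and 32 lower, and 32 of them were among the 157.

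Tap1, Dhx58, Ifi27 and Plscr1, which act in antigen presentation and the antiviral response, rose. Tap1, a subunit of the peptide transporter that loads MHC class I, was at 13.6, 16.8 and 14.9 CPM in controls and 23.9 to 35.7 CPM in diet livers, with a median of 31.5. Every diet liver was above every control, and Tap1 rose by 1.00 (SE 0.16, adjusted p = 0.0221), by 0.89 in MASH, 1.09 in EE and 1.03 in resmetirom livers. Without control 1 the change was 0.94 (adjusted p = 0.0709). Of 16 genes of MHC class I and the immunoproteasome, 12 had positive values with a median of 0.28, and 15 did without control 1, with a median of 0.47. By group the median was −0.07 in MASH, 0.17 in EE and 0.74 in resmetirom, and 0.14, 0.36 and 0.86 without control 1. Tap2, the partner of Tap1, was at 16.04 to 23.2 CPM in controls and 23.3 to 38.7 CPM in diet livers (0.59, adjusted p = 0.0871).

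Dhx58, a helicase that regulates sensing of viral RNA, rose by 0.95 (SE 0.19, adjusted p = 0.0373) from 5.93 to 6.89 CPM in controls to 8.37 to 16.3 CPM in diet livers. Ifi27, an interferon-induced mitochondrial protein, rose by 0.96 (SE 0.20, adjusted p = 0.0465) from 50.8, 68.1 and 75.8 CPM to 76.8 to 183 CPM. Plscr1, an interferon-induced phospholipid scramblase, rose by 1.20 (SE 0.23, adjusted p = 0.0373) from 5.93, 8.08 and 8.78 CPM to 11.3 to 30.8 CPM, the highest being resmetirom 1. None of them overlapped between diet and control, and none passed without control 1 (adjusted p = 0.0991, 0.113 and 0.103). These genes stood outside the interferon list, whose 32 tested members did not pass. In that list 28 were positive with a median of 0.54, and 30 without control 1 with a median of 0.49. All diet livers lay above all controls in 5 of the 32, and in 9 without control 1, beside 2.16% and 4.9% of all tested genes. Examples are Oas1a, a sensor of double-stranded RNA, at 2.31 to 3.97 CPM against 4.35 to 20.5 CPM, and Zbp1, a sensor of Z-form nucleic acid, at 1.91 to 2.87 against 3.55 to 13.4 CPM (adjusted p = 0.0731 and 0.103).

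Other genes that rose were Dio1, Mtnr1a, Ucp2 and Hist1h1c. Dio1, the deiodinase that converts thyroxine to its active form and a standard target of thyroid hormone, was at 104, 93.6 and 75.3 CPM in controls, 119 to 218 CPM in MASH, 185 to 259 CPM in EE and 275 to 702 CPM in resmetirom livers. It rose by 1.53 (SE 0.30, adjusted p = 0.0387), and all diet livers were above all controls, those without the thyroid hormone receptor agonist included. Of 14 tested genes of the thyroid hormone list, 7 were positive and Dio1 was the member that passed. Mtnr1a, a melatonin receptor, was at 0.406 to 0.904 CPM in controls and 1.04 to 4.31 CPM in diet livers (1.94, SE 0.37, adjusted p = 0.0372). Ucp2, an uncoupling protein of the inner mitochondrial membrane, rose by 1.07 (SE 0.23, adjusted p = 0.0478) from 23.2 to 26.4 CPM in controls to 34.0 to 99.5 CPM. Hist1h1c, a linker histone, rose by 1.21 (SE 0.21, adjusted p = 0.0286) from 18.6 to 26.5 CPM to 35.5 to 96.3 CPM. Without control 1 their changes were 1.65 (adjusted p = 0.094), 2.22 (0.0623), 1.12 (0.107) and 1.08 (0.0766). Further genes that rose without overlap were Klhdc8a, Insc, Arsg (a lysosomal sulphatase) and Pgm3 (an enzyme of hexosamine synthesis), at 1.42, 1.05, 0.97 and 0.90. Without control 1 they were at 1.43, 0.95, 1.04 and 0.84 and none passed (adjusted p = 0.0766, 0.111, 0.0719 and 0.0988).

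Mitochondrially encoded messages fell with control 1 in the comparison and not without it. Of 13 such genes all were negative and 5 fell with all livers, with a median of −2.83, against a median of −0.21 with 8 negative and none passing without control 1. For mt-Nd5, a subunit of complex I, control 1 was at 20730 CPM, control 2 and control 3 at 1665 and 1753 CPM and the diet livers at 730 to 1519 CPM. The change of mt-Nd6, encoded on the other strand, was −3.09 (adjusted p = 0.0274) and −1.07 (0.094) without control 1, with the diet livers at 20.1 to 53.03 CPM below control 2 and control 3 at 68.4 and 104 CPM. The mitochondrial share of counts was 3.43% ± 0.581 in the 9 diet livers. It was 14.7% ± 17.9 (SD) in the 3 controls (two-sided exact permutation test, p = 0.00455, the smallest that 220 assignments allow), and 4.32% ± 0.0907 in control 2 and control 3 (p = 0.0545, where 0.0182 is the smallest possible). Nuclear genes of oxidative phosphorylation had a median of −0.12 with control 1 and 0.24 without it (60 genes), and ribosomal protein genes −0.41 and 0.05 (48 genes).

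Markers of other cell types moved with control 1. The summed level of 9 erythroid markers was 3770 CPM in control 1, 494 and 576 CPM in control 2 and control 3 and 588 to 1693 CPM in diet livers. The median change of the 7 tested ones was −1.01 with control 1 and 0.70 without it. B and plasma cell markers summed to 69.7 CPM in control 1, 12.4 and 11.6 CPM in the other controls and 8.77 to 161 CPM in diet livers (median −0.58 and 1.08). Kupffer cell markers (13 genes) summed to 254 CPM in control 1, 712 and 601 CPM in the other controls and 549 to 1059 CPM in diet livers, with medians of 0.53 and 0.18. Sinusoidal endothelial markers (14 genes) summed to 217, 529 and 558 CPM in the controls and 266 to 590 CPM in diet livers, with medians of 0.11 and −0.16. No member of these lists passed with or without control 1, and no marker of them was at 0 in every liver. The part of these cell types in the changes described above was not tested.

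Some lists kept their direction whichever controls were used. Of 14 markers of lipid-associated macrophages, 9 were positive with a median of 0.84 (10 and 1.04 without control 1). Trem2, a lipid receptor of these cells, was at 0.101, 0.296 and 0.508 CPM in controls and 0.524 to 11.6 CPM in diet livers, with resmetirom 1 alone above 2.01 CPM (2.70, adjusted p = 0.147). Monocyte and macrophage markers were positive in 12 of 13 genes (median 0.55, and 0.56 without control 1), and Cd68, a lysosomal protein of macrophages, was at 2.91 to 8.88 CPM in controls and 10.7 to 39.2 CPM in diet livers (adjusted p = 0.116). In the cell cycle list 27 of 29 genes were positive with a median of 0.94 (0.84 without control 1), which was 0.94 in MASH, 0.41 in EE and 1.84 in resmetirom livers. Resmetirom 1 stood apart in these lists. Set against the mean of control 2 and control 3, the median over the cell cycle genes was 3.10 log2 units in resmetirom 1, 0.82 and 0.46 in the other resmetirom livers and −0.07 to 0.92 in MASH and EE livers. That over the lipid-associated macrophage genes was 2.97 in resmetirom 1 and −0.50 to 0.93 in the other diet livers, and that over the monocyte and macrophage genes 1.86 and −0.01 to 0.87. Without resmetirom 1 the fold change medians of the cell cycle, lipid-associated macrophage and monocyte and macrophage lists were 0.59, 0.56 and 0.33. The replication helicase subunits Mcm7 and Mcm3 were above every control in all diet livers, at 9.53 to 15.96 against 7.91 to 9.25 CPM and 3.06 to 8.51 against 2.61 to 2.83 CPM (adjusted p = 0.0902 and 0.15).

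**Figure D4:**
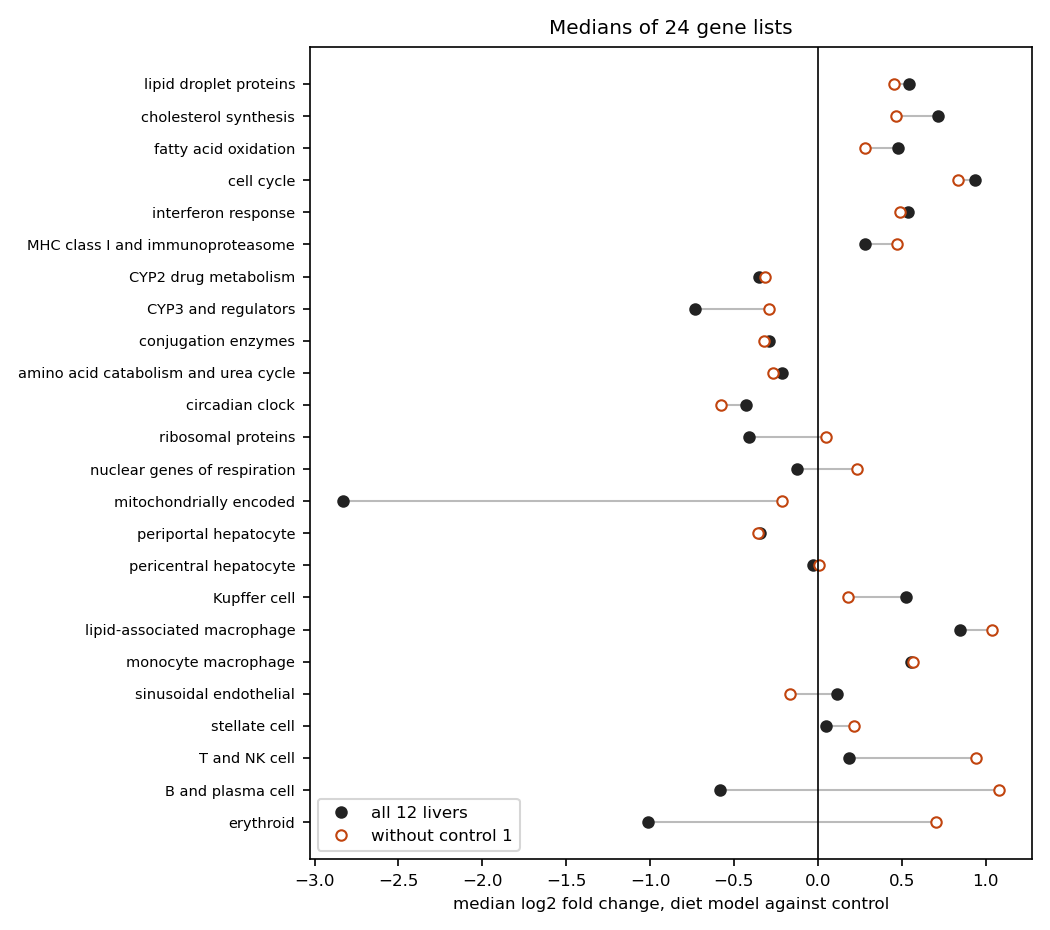
Median log2 fold change of diet-model against control livers over the tested genes of 24 lists, with all 12 livers (filled) and without control 1 (open). The medians of the lipid droplet, cholesterol, oxidation, cell cycle, interferon, P450, conjugation, amino acid and clock lists lie on the same side of 0 both times, and those of the erythroid, B cell, endothelial, ribosomal and nuclear respiration lists change side.

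The 3 diet groups differed among themselves in 81 of the 13988 genes by an F test of the group differences in edgeR (0.579% of those tested), and 11 of these 81 were among the 157. For Oat the change was −0.19 in MASH, −0.64 in EE and −2.85 in resmetirom livers (adjusted p of the difference 0.0122), and for Cyp2c23, an arachidonate epoxygenase, −1.49, −0.57 and −3.45 (0.0252). Hectd2os, whose reads cannot be told from those of its partner unless counting used strand, was at 38.8 to 176 CPM in controls, 44.2 to 79.0 CPM in MASH, 14.0 to 35.0 CPM in EE and 0.231 to 3.37 CPM in resmetirom livers (0.0468). Glcci1 was lowest in MASH, as given above (0.0127). Among genes that rose, the resmetirom group stood highest in Slc22a7, a transporter of organic anions (0.51, 1.70 and 4.05 in MASH, EE and resmetirom, 0.0198), in Tff3, a trefoil peptide of mucosal secretion (0.92, 2.86 and 5.72, 0.0198), in Nudt18, a nucleotide hydrolase (0.50, 0.36 and 2.35, 0.0083), and in Atp6v0e2, a subunit of the proton pump (1.34, 0.91 and 3.13, 0.0328). The remaining genes of the 11 were the RIKEN transcript B430219N15Rik (1.91, 2.53 and 7.49, 0.00681) and a pair of Ensembl genes with no symbol (2.40, 1.97 and 5.06, 0.00448, and −1.78, −1.63 and −5.84, 0.00601). For these 11 genes the direction was shared in the fit with all livers and the size was not. Some of the changes were small, such as Oat in MASH (−0.19) and Glcci1 in EE (−0.46, or −0.20 without control 1). The direction of Hectd2os was not shared without control 1, as given above. Without control 1, Glcci1 and the pair of unnamed genes still passed against control, and Oat, Cyp2c23, Hectd2os, Slc22a7, Tff3, Nudt18, Atp6v0e2 and B430219N15Rik did not (adjusted p from 0.0719 to 0.137). For the other genes of the 157 a difference among the diet groups did not pass with all livers, which does not show that the groups had equal changes. Without resmetirom 2, 22 genes differed among the diet groups, and without control 1, 251 did.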

How the data were processed

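Poly(A) RNA from the 12 livers was sequenced as stranded mRNA libraries in 150-base pairs, per the labels' protocols. The submitters' processing notes name fastp and the build GRCm39. For aligner, counter and strand setting: not given in the sources used here. Expected counts per Ensembl gene, unscaled, were deposited by the authors, and these were rounded to whole numbers. Of 28036 genes, 22603 were given a symbol from a GRCm38 gene table. Transcript length and GC content are those of each gene's longest transcript in a GRCm38 transcript set.

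All 12 libraries shared 1 fit in edgeR 4.0.16 (R 4.3.3) with a mean per group, filterByExpr, TMM scaling and a robust quasi-likelihood F test (8 residual degrees of freedom, or 7 without control 1). The contrast was the mean of the 3 diet groups minus control. A gene passed at an adjusted p below 0.05 and was called shared when its fold change had the same sign in each diet group. Differences among the diet groups were tested with a 2-degree F test of the same fit. Adjusted p-values are edgeR's where no tool is named. The SE is the log2 fold change divided by the square root of F. SDs are over livers. Alternatives used other scalings, filters, designs and left-out libraries, DESeq2 1.42.0 and limma 3.58.1 (voom), with their effect given in the closing section.

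The members, lists and rule for naming genes were chosen with earlier results of these data known. The rule named the 15 highest and 15 lowest fold changes among shared genes that passed without overlap at a mean of at least 1 CPM, 10 and 10 more without control 1, up to 4 genes a list by p and 52 fixed genes, leaving out unnamed models and pseudogenes. Not all are reported. Cyp2c23, Rida, Zbtb20, Foxp1, Firre, Eea1, Slc22a7, Tff3, Hectd2os, Gm30784 and the RNA-processing genes fell outside it and were picked after their values were seen. List members were matched by symbol (1046 directly, 16 by a synonym and 11 not found). Lists are described by counts and medians, with no test.

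The fits were tested on simulated counts with known changes. With all 12 libraries (13781 genes), 26% of 2-fold and 90% of 4-fold changes passed, with 7 unchanged genes. Without control 1 (13880 genes) it was 14% and 81%, with 3 unchanged. Apart from the set changes, all simulated libraries were drawn around the same gene means, so none stood apart as control 1 did. These shares may therefore not hold for the real livers.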

Additional observations from a re-analysis of the deposited data

Results flagged for a closer look

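The size of the shared change differed among the MASH, EE and resmetirom livers, by the F test among the diet groups in edgeR, for Nudt18 (adjusted p = 0.0083), Oat (0.0122), Glcci1 (0.0127), Slc22a7 (0.0198), Tff3 (0.0198), Cyp2c23 (0.0252), Atp6v0e2 (0.0328), Uox (0.0382) and Hectd2os (0.0468). In Uox the changes against control were −0.40, −0.37 and −1.95 in MASH, EE and resmetirom.

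In 11 of the 89 reported genes, the highest of the 9 diet livers lay apart from the rest. Its gap to the next liver was a share of the range of the 9 above Dixon's critical value for 9 values. Chance exceeds that value in about 1 of 20 sets of like samples. The 9 livers came from MASH, EE and resmetirom groups, so this rate does not hold where those groups differed, as in Tff3 and Slc22a7. It was resmetirom 1 in 7 genes and resmetirom 2 in 4. For resmetirom 1 the share was 0.866 in Trem2, 0.811 in Cd68, 0.685 in Lgals3, 0.662 in Cyp2c55, 0.566 in Oas1a, 0.557 in Ucp2 and 0.52 in Plscr1. The levels of Lgals3, the galectin of activated macrophages, were 35.1 CPM in resmetirom 1 and 5.54 to 14.8 CPM in the other diet livers, against 3.40 to 4.82 CPM in controls. For resmetirom 2 the share was 0.703 in Tff3, 0.678 in mt-Co2, 0.615 in mt-Co1 and 0.506 in Slc22a7.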

How the results depend on the processing

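All 157 genes kept their direction when each library was left out in turn, and the 89 reported genes kept theirs under every alternative tried (2125 values, of which 725 no longer passed and 57 newly passed). These fits share most or all of their libraries with the main fit, which favours a kept direction. The number that passed depended on the setting. With all 12 libraries (157), it was 109 with upper quartile scaling, 110 at a log2 fold change of at least 1, 102 with a replicate block, 61 with limma voom, 36 with length and GC offsets (added after seeing the data), 21 with 2 groups, 5 with no scaling factors, 967 with DESeq2, 328 with no filter, 352 without control 1 and resmetirom 2, and 9 to 292 with each library left out. With no scaling factors the median over all genes was 0.21 instead of −0.02.

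Without control 1 (32), it was 22 with upper quartile scaling, 10 with no scaling factors, 16 with limma voom, 15 with offsets, 5 with 2 groups, 112 with a replicate block, 579 with DESeq2, 811 with no filter, and 0 to 576 with a further library left out. The 0 was edgeR without control 2, where 972 genes had an unadjusted p below 0.05.

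For differences among the diet groups (81), it was 35 with no scaling factors, 48 with limma voom, 50 with a replicate block, 731 with DESeq2, 315 with no filter, 709 without control 1 and resmetirom 2 (added after seeing the data), and 12 to 251 with each library left out. The cause of these differences was not tested. The labels do not say what the replicate numbers mark, and not every same-numbered pair was correlated, so the replicate block is given as an alternative alone: deviations of same-numbered libraries correlated at −0.34 to 0.26 in 18 pairs, 8 of them over 0.1, including all 3 between MASH and EE (0.149 to 0.190). Outside their own group, 7 of the 12 libraries correlated best with one of their own number. Some would do so by chance, and the number to expect was not worked out. Under the block, 81 of the 157 genes and 27 of the 32 still passed. Of 55 list medians, 30 kept their sign under every alternative. Depth, 17297864 to 21793311 counts a library, limits precision for genes near 1 CPM.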
